A study of Mus musculus with 2 samples.

Results

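Il3ra encodes the ligand-specific (alpha) chain of the receptor for interleukin-3, and Crlf2 encodes the chain of the receptor for thymic stromal lymphopoietin (TSLP) that binds this cytokine. Both genes were picked by name because their knockout to control ratios of H3K9me3, the trimethylation of lysine 9 on histone H3 that marks silenced chromatin, were already known to be high in these data. Every row of the deposited table that names either gene was taken, which gave 3 of 1381 regions (1 for Il3ra and 2 for Crlf2) and 2 of 1296 genes. Because the ratio chose the genes, the levels and ratios below describe them and support no inference about them.

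H3K9me3 was measured by chromatin immunoprecipitation and sequencing in LSK cells (bone marrow cells without lineage markers that carry c-Kit and Sca-1, the fraction that contains blood stem and progenitor cells) of C57BL6 mice. The control library came from animals labelled WT control. The knockout library came from conditional animals that lost Kdm4a, Kdm4b and Kdm4c, which encode demethylases that remove this mark. Animals of both groups were given tamoxifen, and cells were sorted 2 weeks afterwards. The labels give neither the Cre line, the age and sex of the mice nor the number of animals behind each library. There was 1 library per group, with 24673463 control and 26061344 knockout reads behind the scaling, so no difference can be set against a spread between animals and no test between conditions exists. The table lists regions of H3K4me3, a histone mark found at active promoters, whose H3K9me3 ratio of knockout to control was above 2, the lowest being 2.01. A gene that is not listed therefore has no known level. Neither the deletion nor the sorted cell type can be checked in it: of 11 marker genes of LSK and lineage-positive cells, the Sca-1 gene Ly6a alone had a region, with 1 control and 4 knockout reads.

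Cytokine receptors of the class I family have no kinase of their own and signal through bound JAK kinases and STAT factors. Interleukin-3 receptor alpha gives the receptor its specificity and signals together with a beta chain, encoded in mice by Csf2rb, which it shares with the receptors for interleukin-5 and GM-CSF, or by Csf2rb2. It is also known as CD123, and interleukin-3 promotes growth of multipotent and myeloid progenitors. The Crlf2 product pairs with the interleukin-7 receptor alpha chain, encoded by Il7r, and TSLP acts on dendritic cells, lymphoid cells and basophils. In humans both genes lie in the pseudoautosomal region of the sex chromosomes, whereas in mice they are autosomal, Il3ra on chromosome 14 and Crlf2 on chromosome 5.

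The regions lay beside the listed start sites and did not contain them (mm10). The Il3ra region, chr14:14345892-14346318, was 427 bp wide and ended 177 bp upstream of the listed start site at 14346495, on the plus strand. It contained the outermost 5′ end that RefSeq gives for Il3ra, 14345912, so the same region is upstream of one annotated start of the gene and spans another. Crlf2 is on the minus strand, with its listed start site at 109558993. One of its regions, chr5:109559178-109559526 (349 bp wide), lay upstream and stopped 185 bp short of the start site. The other, chr5:109557658-109558552 (895 bp wide), lay within the gene and began 441 bp downstream of it. The Crlf2 regions were separated by 625 bp, and this gap held the listed start site as well as the outermost RefSeq 5′ end at 109559128. The annotation used here gives gene bounds and not exons or introns.

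**Figure D1:**
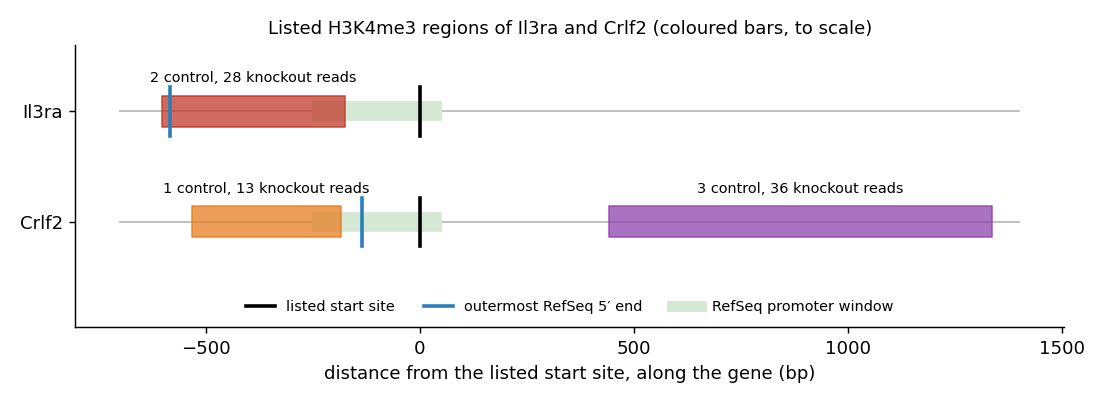
Positions of the listed H3K4me3 regions of Il3ra and Crlf2 along each gene, in bp from the listed start site (negative is upstream). Coloured bars are regions with their H3K9me3 reads, the black line is the listed start site, the blue line the outermost RefSeq 5′ end and the green band the promoter window of 250 bases before to 50 after the start site; the upstream regions end 177 bp (Il3ra) and 185 bp (Crlf2) before the start site.

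The promoter sequences are shown because they join the measured regions to the start sites. Each is the RefSeq window (GRCm38.p6, the assembly of mm10) of 250 bases before to 50 after the start, read 5′ to 3′ on the strand of the gene, which is plus at chr14:14346245-14346544 for Il3ra and minus at chr5:109558944-109559243 for Crlf2. The start site is base 251, and capitals mark the bases inside a listed region, 74 at Il3ra and 66 at Crlf2.
Il3ra: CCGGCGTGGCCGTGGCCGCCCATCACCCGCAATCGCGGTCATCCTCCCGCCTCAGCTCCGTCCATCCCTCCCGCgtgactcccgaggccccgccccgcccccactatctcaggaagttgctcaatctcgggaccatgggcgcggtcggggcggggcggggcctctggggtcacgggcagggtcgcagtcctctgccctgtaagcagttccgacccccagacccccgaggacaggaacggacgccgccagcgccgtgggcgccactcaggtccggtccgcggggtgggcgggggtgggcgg
Crlf2: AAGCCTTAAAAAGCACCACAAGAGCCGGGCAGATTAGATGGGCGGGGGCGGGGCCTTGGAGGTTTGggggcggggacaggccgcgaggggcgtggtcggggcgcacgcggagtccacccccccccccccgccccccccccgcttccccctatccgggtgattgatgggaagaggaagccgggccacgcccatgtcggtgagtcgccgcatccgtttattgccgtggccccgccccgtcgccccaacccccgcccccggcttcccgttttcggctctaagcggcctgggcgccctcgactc

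Both promoters were rich in G and C. GC content was 74.3% at Il3ra and 71.7% at Crlf2, above 95.6% and 92.6% of all 32851 RefSeq promoters. The median was 52.7% over all promoters and 60.0% over the 1145 promoters matched by symbol to 975 listed genes. CG dinucleotides numbered 35 and 31, against a median of 21 in promoters of listed genes and 7 in all promoters. These numbers exceeded those of 88.6% and 81.8% of promoters of listed genes. Among the 30 of 36 class I cytokine receptor genes with a promoter in the RefSeq table, taking the most GC-rich window of each gene, Il3ra ranked 3rd and Crlf2 4th by GC content, behind Lifr and Cntfr, and the median was 59.5%. The GC box CCGCCC, searched on both strands, occurred 7 times at Il3ra and 6 times at Crlf2, and at least once in 63.9% of promoters of listed genes and 35.7% of all promoters. Of these matches, 1 at Il3ra and 2 at Crlf2 lay in the capitals. GGAA, the core of ETS factor sites, occurred 3 and 4 times, and was present in 96.4% of promoters of listed genes and 96.0% of all promoters. GATAA (GATA factors) and TTCNNNGAA (STAT factors), found in 15.8% and 8.21% of promoters of listed genes (25.4% and 8.30% of all promoters), were in neither window. The Crlf2 window also holds an unbroken run of 13 C, visible in the sequence above, and the longest C run at Il3ra was 5.

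At Il3ra, the control library had 2 reads (0.0811 RPM, reads scaled to library size) and the knockout library 28 reads (1.07 RPM). Exact 95% Poisson intervals, which cover counting error only, were 0.00982 to 0.293 RPM for the control and 0.714 to 1.55 RPM for the knockout, so they did not overlap. The ratio was 13.3, with an exact counting interval (Clopper-Pearson, 95%) of 3.34 to 114.8.

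At the Crlf2 region within the gene, the control library had 3 reads (0.122 RPM) and the knockout library 36 (1.38 RPM). These intervals were also apart, at 0.0251 to 0.355 RPM for the control and 0.967 to 1.91 RPM for the knockout. The ratio was 11.4 (3.59 to 57.7). At the upstream Crlf2 region, 1 control read (0.0405 RPM) stood against 13 knockout reads (0.499 RPM), a ratio of 12.3 (1.85 to 523). Here the intervals of the levels, 0.00103 to 0.226 RPM and 0.266 to 0.853 RPM, did not overlap but came close. The share of all listed regions whose level intervals do not overlap was not counted. Since the genes were chosen on this contrast, nothing is read from the gaps between intervals. In all 3 regions the knockout library was the higher, as in every region of the table by its selection, and the control level rested on 1 to 3 reads. In pooled chromatin a larger share of marked cells and more mark per cell cannot be told apart. The small number of control reads sets the width of the intervals and leaves the upper limits loose.

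**Figure D2:**
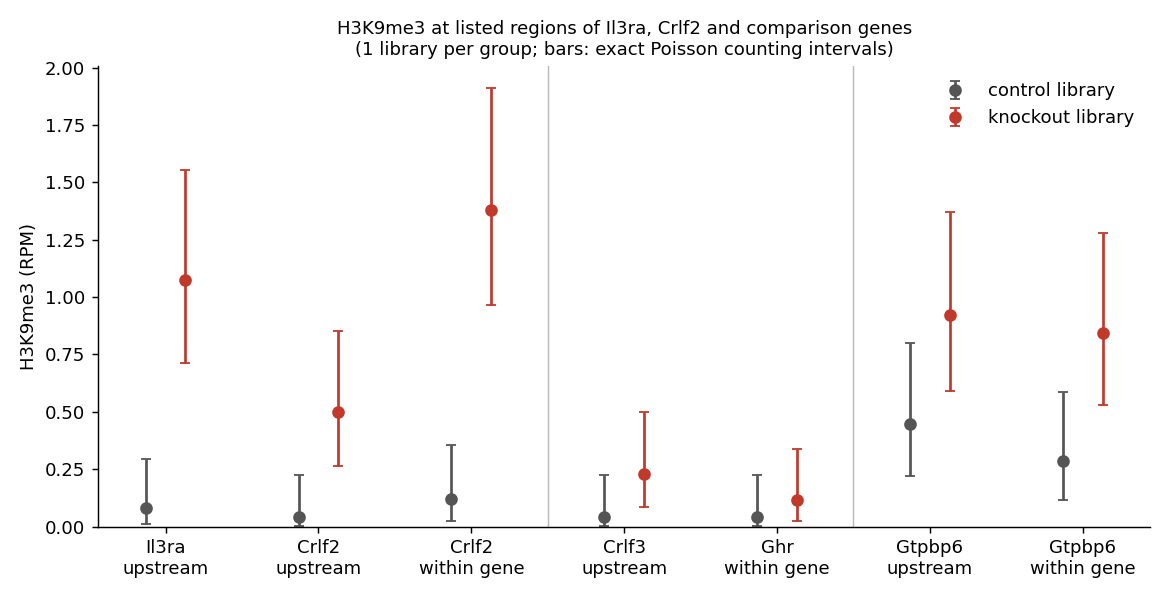
H3K9me3 level (RPM, y axis) in the control (grey) and knockout (red) library at the regions of Il3ra and Crlf2, the other listed class I receptor genes Crlf3 and Ghr, and Gtpbp6, the nearest other listed gene to Crlf2. Points are single libraries and bars exact 95% Poisson counting intervals. Control and knockout bars are apart at the Il3ra and Crlf2 regions, which were chosen for high ratios, and overlap at the comparison genes shown.

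Together the 3 regions held 6 control and 77 knockout reads, a joint ratio of 12.1 (5.33 to 34.1). Both Crlf2 regions held 4 and 49, a ratio of 11.6 (4.25 to 44.3). Regions are not replicates, so the narrower joint intervals describe the summed reads only. They are too narrow if both Crlf2 regions share reads, which is not known. The remaining 1378 regions of the table gave a joint ratio of 3.42 (3.29 to 3.55). The counting interval lay above 1 for 3 of the 3 regions and for 21.1% of all listed regions, and above 2 for 2 of them (Il3ra and Crlf2 within the gene) and for 3.48% of all. After adding a pseudocount of 0.0405 RPM, all 3 were at least 2-fold higher in the knockout, as were 85.1% of the 704 regions with a mean level at or above the median. Nothing is read from these counts, since the genes were chosen on this contrast.

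The table also limits what a ratio can be, because it lists neither ratios up to 2 nor regions that lacked control reads. When the binomial distribution was restricted to outcomes that could be listed, the lower limits became 3.27 at Il3ra, 3.56 at Crlf2 within the gene and 1.39 at Crlf2 upstream. The upper limits rose to 544 and 86.6 for the first pair. At Crlf2 upstream no upper limit existed, since 1 control read is the smallest number the table can hold.

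By log2 ratio after the pseudocount, Il3ra stood 7th in the table (3.20), Crlf2 within the gene 9th (3.13) and Crlf2 upstream 29th (2.73, a place it shared with 4 other regions), against a table median of 1.26. By the deposited ratio they stood 11th (tied with 5 others), 23rd (also a tie, with Pole4 among others) and 18th (tied with 4 others). Directly above and below Il3ra by log2 ratio were Irgm2, an interferon-inducible GTPase gene (1 and 20 reads), and Taf1a, an RNA polymerase I factor gene (2 and 27 reads). Taf1a was also directly above Crlf2 within the gene, and 1700028E10Rik and Rwdd1 (3 and 34 reads each) followed it. By deposited ratio Tmem19 (1 and 15 reads) stood directly above Il3ra. Pole4 (1 and 12 reads) had the same ratio as Crlf2 within the gene, 11.4. The counting intervals of all these neighbours overlapped those of the receptor genes, so their order is not resolved at this depth.

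Regions with the same number of control reads give a comparison at equal denominator. Of the 315 regions with 2 control reads, the knockout library had 5 to 37 reads with a median of 6, and the 28 reads of Il3ra were exceeded by 1 region, that of the zinc finger gene Zfp101. Among the 174 regions with 3 control reads, the range was 7 to 36 with a median of 9, and Crlf2 within the gene was the highest. Among the 640 regions with 1 control read, the range was 3 to 32 with a median of 4. There, 14 regions had more knockout reads than Crlf2 upstream and 4 had as many.

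**Figure D3:**
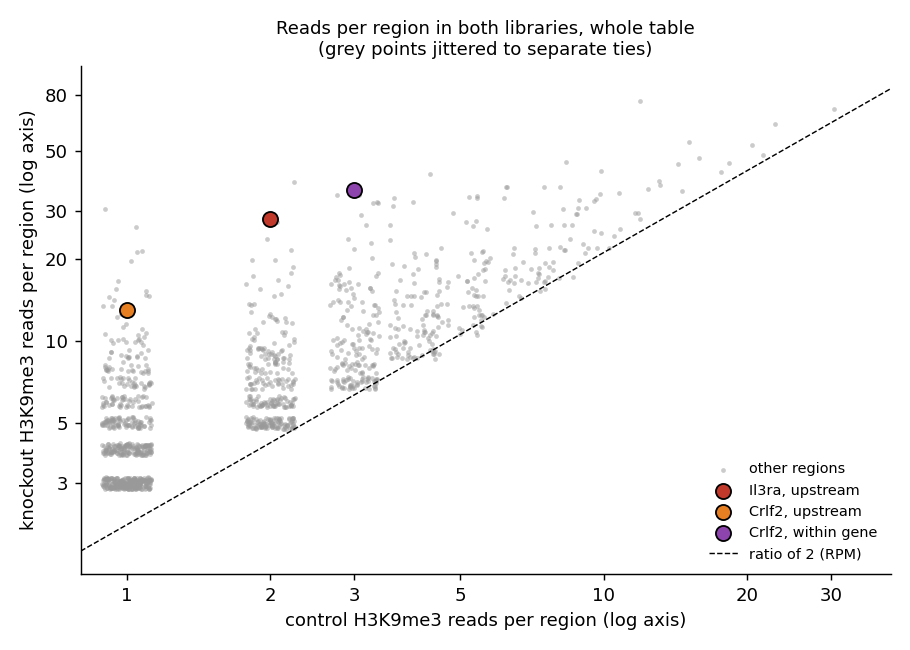
H3K9me3 reads per region in the control (x, log axis) and knockout library (y, log axis) for all 1381 regions; grey points are slightly shifted at random so that ties show, and the dashed line is a ratio of 2. Il3ra and Crlf2 within the gene lie at the upper edge of the regions with 2 and 3 control reads, and Crlf2 upstream below the top of those with 1.

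The regions most like each member were found by the distance between log2 levels in both libraries, over 2 libraries only. For Il3ra they were Taf1a, Cep57l1, Zfp101, Mfsd9 and Mterf1b, with 2 or 3 control and 21 to 37 knockout reads. For Crlf2 within the gene they were 1700028E10Rik, Rwdd1, Elob, Gtf2b and Zfp33b, all with 3 control and 33 or 34 knockout reads. For Crlf2 upstream, 2700062C07Rik, Nt5c3, Ppp1r21 and Wdr59 had the same reads in both libraries, and Cops7a had 1 and 14. No other cytokine receptor gene was among these regions.

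Crlf2 was 1 of 85 genes with 2 listed regions. Its lower ratio, 11.4, was the highest lower ratio of the 85 genes, followed by 6.63 at Cops7a, a gene for a COP9 signalosome subunit, whose other region had 13.3. Over the 85 genes the median was 2.84 for the lower and 4.73 for the higher ratio. In 12 genes the higher ratio reached 10, and in 1, Crlf2, both did. Crlf2 was chosen because its ratios were known to be high, so its top place is a description only. The Crlf2 ratios differed from each other 1.08-fold, against a median of 1.42-fold and a maximum of 10.4-fold over these genes. This closeness is not resolved, since the Crlf2 ratios rest on 3 control reads within the gene and 1 upstream. Their counting intervals were 3.59 to 57.7 and 1.85 to 523. Some other genes, such as Samm50, had equal ratios. Both counting intervals lay above 1 for 11 of the 85 genes, Crlf2 among them.

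**Figure D4:**
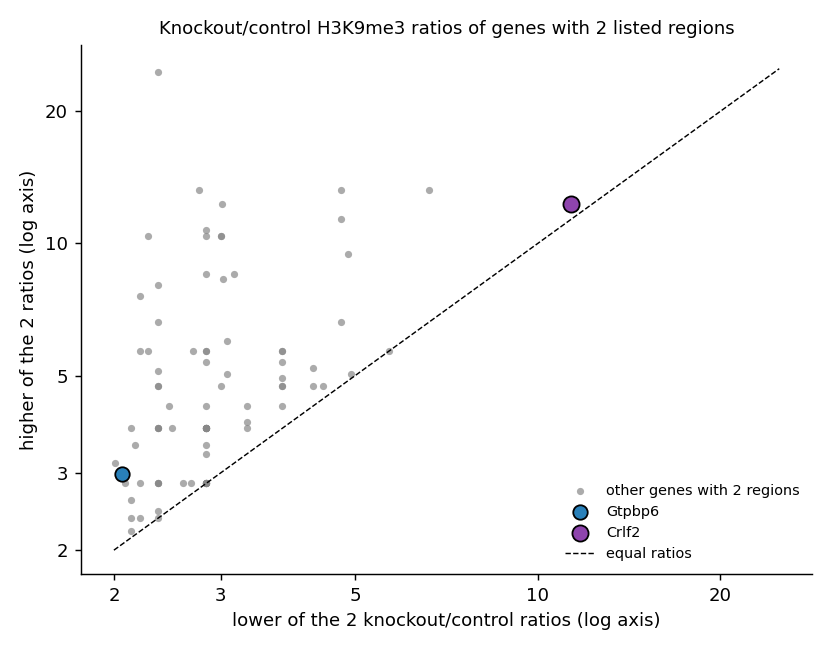
Lower (x, log axis) and higher (y, log axis) knockout to control H3K9me3 ratio of each of the 85 genes with 2 listed regions; the dashed line marks equal ratios. Crlf2, at 11.4 and 12.3, lies apart at the upper right, and Gtpbp6, at 2.07 and 2.98, at the lower left.

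How far these 2 regions are separate measurements is not known from the table. H3K9me3 reads did not rise with region width (Spearman's rho -0.04 for knockout and -0.07 for control reads over 1381 regions, which share both libraries), so the values may have been counted in a window other than the region. The centres of the Crlf2 regions lay 1247 bp apart, and windows wider than that would share reads. Both also share the library and the chromatin preparation, so they are not replicates. Because the counting window is not known, levels divided by width are not reported, and levels of different genes were not ranked against each other per length. Division by width was run as an alternative for the ratios only, which it cannot change.

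H3K4me3, which the choice of the genes did not use, gave no common place to the 3 regions. Region height, the authors' H3K4me3 value in RPKM (reads scaled to length and depth), was 13.5 at Crlf2 within the gene, 11.5 at Il3ra and 8.24 at Crlf2 upstream, against a table median of 11.0 (quartiles 8.78 and 14.8). These heights exceeded those of 67.5%, 54.1% and 18.0% of regions. Widths of 895, 427 and 349 bp stood against a median of 680 bp (quartiles 481 and 946). Crlf2 within the gene lay above the median but inside the quartiles, and the others lay below the lower quartile. The centres of the 3 regions lay 888.5, 389.5 and 358.5 bp from the start site, with a table median of 517 bp and none beyond 1000 bp. Spearman's rho between height and log2 ratio was 0.08 across all 1381 regions, which share both libraries.

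**Figure D5:**
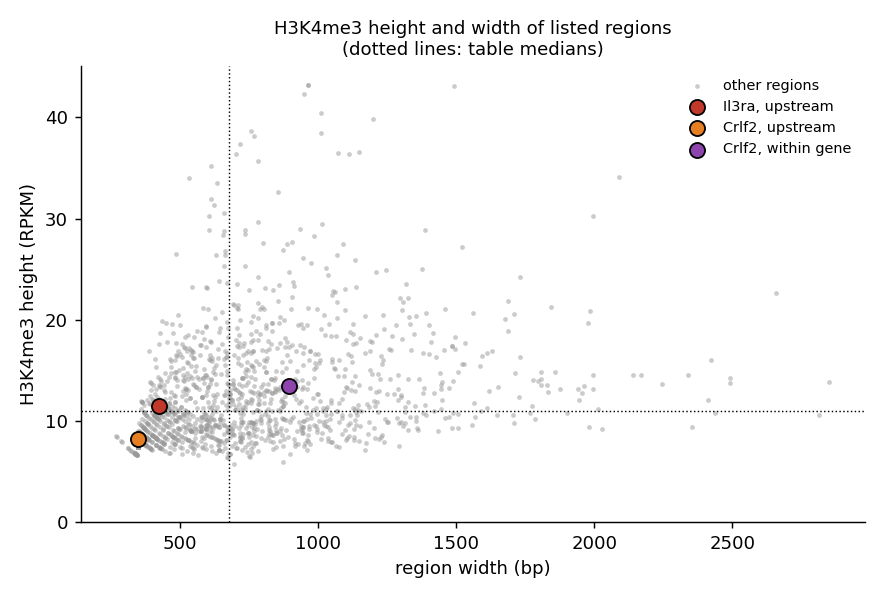
H3K4me3 height (RPKM, y axis) against region width (bp, x axis) for all 1381 regions, with Il3ra and both Crlf2 regions in colour and table medians (11.0 RPKM, 680 bp) as dotted lines. Crlf2 within the gene lies above both medians, Crlf2 upstream below both, and Il3ra is narrow with a height near the median.

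The partners of both receptor chains were not listed. Of 8 genes for interleukin-3, interleukin-5, GM-CSF and their receptors, Il3ra alone had a region. The ligand genes Il3, Il5 and Csf2, the alpha chain genes Il5ra and Csf2ra and the beta chain genes Csf2rb and Csf2rb2 had none. Of 4 genes for TSLP, interleukin-7 and their receptors, Crlf2 alone had a region, and Tslp, Il7 and Il7r had none. These genes may have had no H3K4me3 region, no reads in the control or a ratio up to 2, and their H3K9me3 is not known. In each list the listed gene was a chosen gene. The counts are therefore not read against the 5.32% of all RefSeq protein-coding genes that were listed.

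In the wider class I family, 4 of 36 genes were listed, beside 5.32% of all RefSeq protein-coding genes. As 2 of the 4 were chosen in advance, the count is not read as different from that share. Beside Il3ra and Crlf2 the listed genes were Crlf3, which encodes a cytokine receptor-like protein, and Ghr, the growth hormone receptor. Crlf3 had 1 control and 6 knockout reads (0.0405 and 0.230 RPM) in an upstream region, a ratio of 5.68 (0.69 to 261). Ghr had 1 and 3 reads (0.0405 and 0.115 RPM) within the gene, a ratio of 2.84 (0.23 to 149). Equal levels lay inside both intervals, and with 1 control read each these genes cannot be told from Il3ra and Crlf2 in ratio. With the region nearest the start site standing for each gene, the median ratio of the 4 was 8.99 against 2.998 over all listed regions, and 2 of the 4 genes had been chosen for their ratio.

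Other receptor and signalling lists held 1 or 2 listed genes each. Of 12 class II receptor genes (interferon and interleukin-10 families), Ifnar2, a chain of the type I interferon receptor, had 5 control and 11 knockout reads, and its ratio of 2.08 (0.67 to 7.65) was near the floor of the table. Of 28 genes for other receptors of blood cells, among them Kit, Flt3 and Csf1r, Tgfbr1, a TGF-beta receptor kinase, had 1 control and 4 knockout reads and a ratio of 3.79 (0.37 to 186.5). Of 27 genes for JAK kinases, STAT factors and their inhibitors, Pias2 and Pias1, which encode SUMO ligases that restrain STAT factors, were listed. Pias2, with 2 control and 10 knockout reads, had a ratio of 4.73 (1.01 to 44.4), and Pias1, with 1 and 3, a ratio of 2.84 (0.23 to 149). No gene for a JAK kinase, STAT factor or SOCS inhibitor had a region. For comparison, 1166 of 21900 RefSeq protein-coding genes (5.32%) were matched by symbol to a listed region, a share that includes genes without H3K4me3. With so small a number of genes per list, the counts are not read as different from that share.

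The counts of listed genes around the receptor genes stand beside the 5.32% of all RefSeq protein-coding genes that were listed. They are too small to be read as different from that share. Of 11 protein-coding genes within 1 Mb of Il3ra, none had a region. The nearest listed region on chromosome 14 was that of Oxsm, a mitochondrial fatty acid synthesis gene, 1.90 Mb away, with 2 and 5 reads, a ratio of 2.37 (0.39 to 24.9). The protein-coding genes next to Il3ra were Olfr31, an olfactory receptor gene 16.8 kb away, and Slc4a7, a bicarbonate transporter gene 347.5 kb away on the other side. Of 38 protein-coding genes within 1 Mb of Crlf2, only Gtpbp6, a GTP-binding protein gene, had regions, and the nearest protein-coding genes, Gm50598 (75.8 kb) and 5430403G16Rik (115.4 kb), were not listed. The Gtpbp6 regions lay 549 and 550 kb from the Crlf2 region within the gene.

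Gtpbp6 is of interest beside Crlf2 because it is also autosomal in mice and pseudoautosomal in humans, and because its listed regions likewise lie on either side of its start site. Its region within the gene had 7 control and 22 knockout reads (0.284 and 0.844 RPM), a ratio of 2.98 (1.23 to 8.25). Its upstream region had 11 and 24 reads (0.446 and 0.921 RPM), a ratio of 2.07 (0.97 to 4.67). Control reads were thus more numerous at Gtpbp6 than at Crlf2, and knockout reads lay between those of both Crlf2 regions. The counting intervals of the ratio overlapped between each Gtpbp6 region and each Crlf2 region. Of 6 mouse autosomal genes whose human counterparts are pseudoautosomal, Il3ra, Crlf2 and Gtpbp6 were listed, and Csf2ra, Plcxd1 and Dhrsx were not. This list contains both chosen genes, so its count is not evidence about the group.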

How the data were processed

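The values analysed were 1 deposited table of H3K4me3 regions with H3K9me3 values for 1 control and 1 knockout library, grouped by their genotype labels. Trimmomatic, Bowtie2 and mm10 are named in the submitters' processing notes; for the region caller, counting window and duplicate handling, the sources used here give nothing. The H3K9me3 columns deposited by the authors were taken as RPM, because each was a whole multiple of 1 step per library (100% of values within 0.01 reads), which gave the read numbers and totals. A scaling per fixed 1 kb would give identical numbers. The ratio of knockout to control was deposited by the authors. H3K4me3 height was deposited by the authors as RPKM and distance to the start site as another value of the region; both describe regions only. Start sites and regions are given 1-based.

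With Python 3.11.15, numpy 2.4.6, scipy 1.17.1, pandas 2.3.3 and matplotlib 3.10.9, ratios were recomputed. They were given exact 95% intervals from the binomial distribution of reads. The intervals were tested on simulated counts drawn around the mean reads of both libraries, without the table's selection on ratio. Their coverage under that selection, at control reads as low as in the 3 regions, was not tested. The intervals cover counting error only, since without molecular identifiers several reads can stem from 1 molecule. Log2 ratios used a pseudocount of 0.0405 RPM, the 5th percentile of nonzero values, and understate changes at low levels. No filter on low values was applied to the 3 regions, and no count model was run because there are no replicates. Genes named were the 2 receptor genes, their neighbours in rank and within 1 Mb, the 5 most alike regions and listed members of 7 gene lists. Oxsm, the neighbouring genes without regions, Lifr and Cntfr were named after their values were seen. One rank neighbour is not reported here. The genes and lists were chosen with earlier results of these data known. Promoters are RefSeq sequences matched by symbol.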

Additional observations from a re-analysis of the deposited data

How the results depend on the processing

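No paired analysis was possible because there was a single library per group, which also left no replicate to omit. All 3 regions were higher in the knockout under every alternative run, which carries no weight as support. The genes were chosen for high ratios from a table of ratios above 2. The settings could therefore hardly change their direction or their place above the table median. Scaling both libraries to equal sums over the table moved the table's median log2 ratio from 1.26 to -0.13, which a table of ratios above 2 forces, and gave 1.54 at Il3ra, 1.45 at Crlf2 within the gene and 1.20 at Crlf2 upstream; relative to that median they remained above it. Ranks depended on the setting. With a pseudocount 10 times smaller they were 11 (Il3ra), 23 (Crlf2 within the gene) and 18 (Crlf2 upstream), and with one 5 times larger 11, 4 and 59. By the lower counting limit they were 9, 4 and 60, and by knockout minus control level 31, 8 and 152. A pseudocount weighs most on regions with the fewest reads. The joint ratio ran from 11.6 to 12.9 when each region was left out, the latter also with Crlf2 represented by its upstream region, the nearest to the start site. Lower limits of 99% intervals stayed above 1 (2.51, 2.78 and 1.29 in the same order). Without a pseudocount every listed ratio was above 2. After the pseudocount, 599 of the 704 regions with a mean level at or above the median were at least 2-fold higher. The count was 273 under the larger pseudocount, 916 without the filter on mean level and 44 after equalizing sums. Counting intervals above 1 numbered 292 at 95% and 143 at 99%. Intervals limited to outcomes that the table could list were added after seeing the data. Depth limits all values: the 3 regions rest on 30, 39 and 14 reads.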
